A study of Mus musculus with 19 samples.

Results

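Transcripts of the integrated stress response were followed in single mouse blastocysts, the embryos in which an inner cell mass and a trophectoderm have formed. The genes were chosen by name: the transcription factors Atf4, Atf5 and Ddit3, the feedback genes Trib3 and Ppp1r15a, Sesn2, the amino acid synthesis enzymes Asns, Psat1 and Phgdh, and the glutathione-degrading enzyme Chac1. Of these 10 genes, 9 had a row among the 14173 genes of the table, and Chac1 was not analysed here. The groups were 10 Control embryos and 9 Padi6-mutant embryos, the latter derived, per the series' design text, from oocytes carrying the P620A change of Padi6, which encodes a protein of the subcortical maternal complex of the oocyte. Each library came from 1 whole blastocyst, and the mutant group holds embryos that reached this stage. Strain, parental crosses, litters and days of collection are not given in the sources used here, so p-values take embryos as independent.

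In the integrated stress response, kinases that sense lack of amino acids, misfolded protein in the endoplasmic reticulum, double-stranded RNA or haem and mitochondrial stress phosphorylate the initiation factor eIF2. General translation then falls, while the mRNA of Atf4, which carries upstream open reading frames, is translated more. The ATF4 protein switches on genes of amino acid synthesis and uptake together with Ddit3, which encodes the factor CHOP, and GADD34, the product of Ppp1r15a, brings a phosphatase to eIF2 and ends the response. Because much of this control acts on translation, the level of an mRNA is not a measure of ATF4 or CHOP protein.

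ATF4 binds C/EBP-ATF response elements, whose core was searched as TGATGNAA on both strands in RefSeq windows (build GRCm38.p6) from 250 bases before to 50 bases after the transcription start. The 10 genes had 12 windows. The letters were found in windows of 3 of the 10 genes, namely Trib3, Asns and Chac1, against 3.97% of all 32851 windows. Since the genes were chosen by name as genes of the response, no enrichment is read from this. The full cAMP response element, TGACGTCA, was found in the window of Ppp1r15a alone among the 10 genes and in 1.79% of all windows, and neither motif overlapped the other in these genes. A match is a string of letters and not a bound site, and the Ddit3 window of this length held neither. No link between a match and a change in level was tested. The stretches below show the match of an amino acid response gene (Asns) and that of Ppp1r15a beside the start-proximal stretch of Ddit3, with matches in capitals.
Asns, chr6:7693214-7693243, minus strand: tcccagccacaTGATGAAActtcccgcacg
Ppp1r15a, chr7:45526269-45526328, minus strand: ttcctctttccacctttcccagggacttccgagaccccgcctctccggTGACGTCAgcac
Ddit3, chr10:127290713-127290773, plus strand: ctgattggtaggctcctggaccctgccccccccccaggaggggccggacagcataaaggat

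Levels are given as log2(scaled count + 1), where the authors scaled each library to a common upper quartile. Totals before scaling could be worked back from the steps of the values in 13 of 19 libraries, at 27.9 to 46.2 M in 5 Control and 12.1 to 30.2 M in 8 Padi6-mutant libraries. These totals exceed the reads per library that the labels state, and which of the 2 gives the depth is not known. Padi6-mutant libraries had 113 to 596 listed genes at 0 against 30 to 247 in Control libraries, and 4 of them, Padi6-mutant 6, 8, 9 and 10, had over 400 and are called the sparse libraries here. Short transcripts were higher relative to long ones in Padi6-mutant libraries: across genes, transcript length and the library's deviation from each gene's mean had a Spearman's rho of -0.42 to -0.08 there and -0.11 to 0.39 in Control libraries. Results are therefore also given on length-corrected values, from which a trend on length and GC content was taken out library by library. Padi6 mRNA spanned 2.00 to 9.27 in Padi6-mutant and 3.81 to 9.24 in Control embryos, which does not check the labels because an amino acid change leaves the transcript. Of 8 trophectoderm markers 7 were listed, with a summed level of 16.7 to 18.9 in Padi6-mutant and 17.7 to 18.6 in Control embryos, and all 6 inner cell mass markers were listed, with 15.8 to 16.3 and 16.1 to 17.1, and 4 of 4 primitive endoderm markers, with 13.1 to 13.7 and 13.2 to 15.2. The sums of both inner lineages thus tended to be lower in Padi6-mutant embryos, but not every inner cell mass marker was lower. Tfcp2l1, with the highest median of the inner cell mass markers, weighed most in their sum. Its median was lower in Padi6-mutant embryos, as were those of Pou5f1 and Esrrb. The medians of Nanog, Sox2 and Klf4 were nearly the same in both groups. Each primitive endoderm marker had a lower median in Padi6-mutant embryos. The part of these lineages in the results below was not tested. Of 9 cumulus and granulosa markers 2 were listed (Amhr2 and Star, summed level 7.91 to 9.42 and 7.76 to 9.55), and the other 7, among them Foxl2, Amh and Fshr, were not analysed here. The median of Amhr2 was 8.22 in Padi6-mutant and 6.96 in Control embryos, and that of Star was 7.36 and 7.62. These opposite shifts were not tested.

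Among the 9 genes, only Ddit3 was called higher in Padi6-mutant embryos and only Ppp1r15a was called lower. With limma across all genes and a Benjamini-Hochberg adjusted p under 0.05, 1 of 9 genes was higher in Padi6-mutant embryos and 1 of 9 was lower, where 26.6% of all genes passed, 14.6% higher and 12.0% lower. The counts are near the shares of all genes, so nothing is read from them about the 9 genes as a set. The remaining 7, Atf4 and the enzymes of serine and asparagine synthesis among them, did not pass. The median log2 fold change of the 9 genes was -0.32 against -0.10 for all genes. All 9 genes were above 0 in every library. On length-corrected values 1 of 9 was called higher (Ddit3) and 0 of 9 lower in limma, 1 of 9 being lower at an unadjusted p under 0.05, where 20.9% of genes were called, 10.6% higher and 10.3% lower. In whole embryos, fewer cells of a type and less RNA per cell cannot be told apart.

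**Figure D1:**
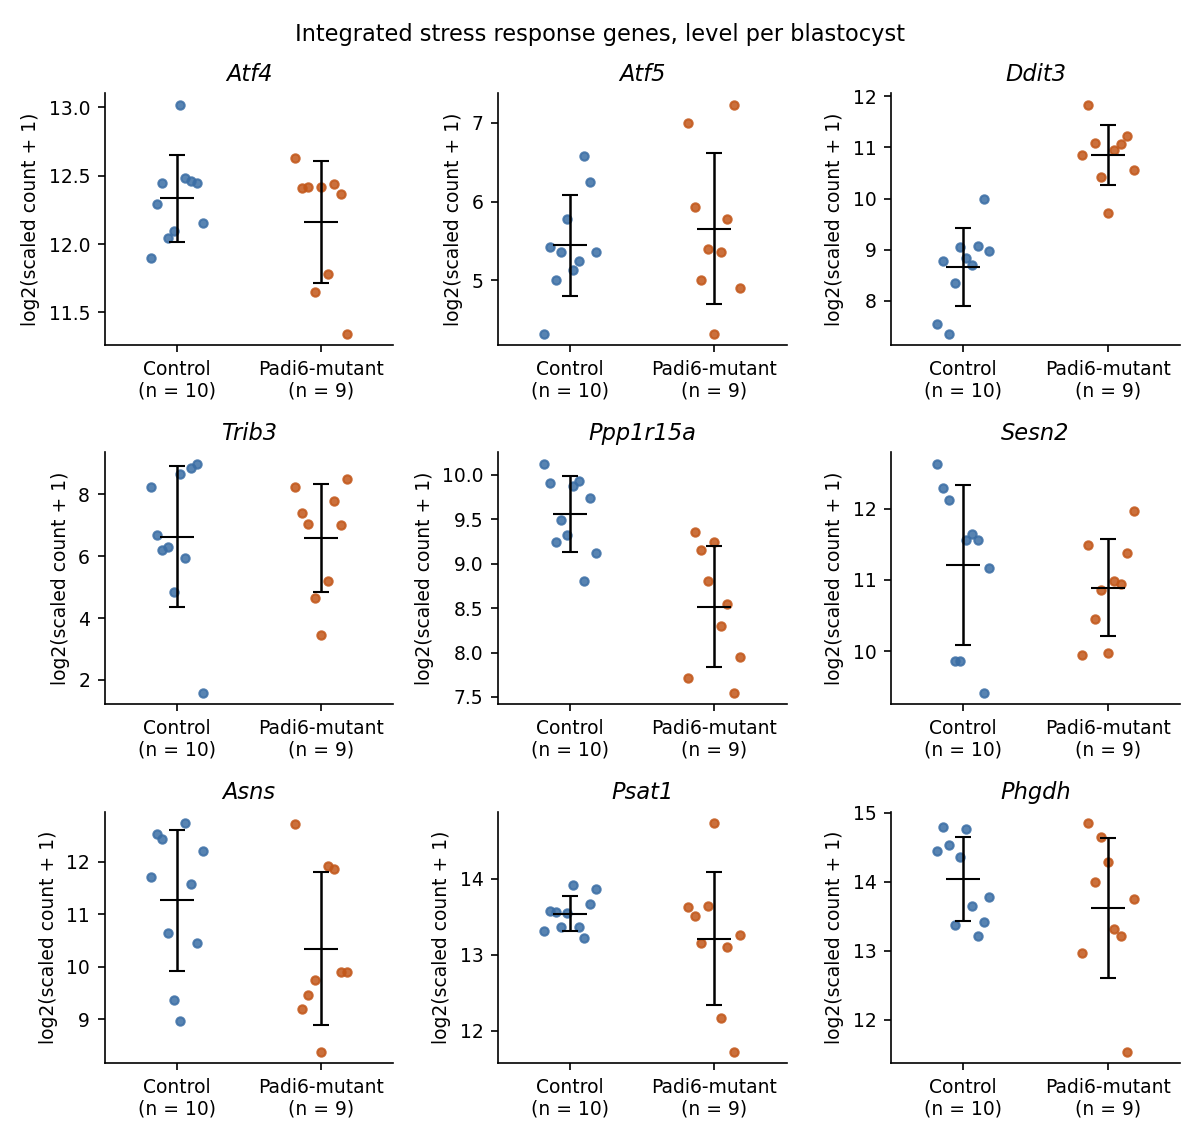
Level of each listed gene, as log2(scaled count + 1), in 10 Control and 9 Padi6-mutant blastocysts. Each point is 1 embryo, the bar is the mean and the whiskers 1 SD. Ddit3 lies at 9.72 or above in all Padi6-mutant embryos, while for Atf4 the groups overlap, with 3 Padi6-mutant embryos below and Control 6 above the rest.

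Ddit3, which encodes the CHOP factor of prolonged stress, had levels of 7.54, 8.78, 7.36, 8.35, 9.06, 8.83, 8.69, 9.08, 9.98 and 8.97 in Control embryos 1 to 10. In Padi6-mutant embryos 2 to 10 they were 10.85, 11.83, 11.09, 10.42, 9.72, 10.95, 11.06, 11.23 and 10.56. Of the 9 Padi6-mutant embryos, 8 lay above every Control embryo, and the overlap rested on Padi6-mutant 6 and Control 9. The mean was 10.86 ± 0.59 (SD, n = 9) against 8.67 ± 0.77 (SD, n = 10), a log2 fold change of 2.19 or 4.57-fold (95% interval 2.96-fold to 7.05-fold, limma adjusted p = 1.19e-05). In scaled counts the levels ran from 843 to 3640 in Padi6-mutant and from 163 to 1010 in Control embryos.

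Atf4, the main factor of the response, did not pass. Its level ran from 11.90 through a median of 12.37 to 13.02 in Control embryos and from 11.34 through 12.41 to 12.63 in Padi6-mutant embryos. Padi6-mutant 5, 7 and 10 lay below every Control embryo, and Control 6 lay above all others. The log2 fold change was -0.17 (95% interval -0.54 to 0.20, limma adjusted p = 0.506), an interval that leaves out a rise of the size seen for Ddit3.

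Atf5, a related factor that is itself induced by ATF4 and CHOP, was low in both groups, at 4.32, 5.36 and 6.58 (lowest, median, highest) in Control and 4.32, 5.39 and 7.23 in Padi6-mutant embryos. Padi6-mutant 2 and 9 lay above all Control embryos and the rest lay among them. The log2 fold change of 0.21 (95% interval -0.75 to 1.17) did not pass (limma adjusted p = 0.766). Exons of Atf5 share 82 bases with Nup62 on the opposite strand in GENCODE M21, and the counting of reads by strand is not given in the sources used here.

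The rise of Ddit3 was set beside its transcript length, since short transcripts were higher in Padi6-mutant embryos. Its principal transcript has 890 nt, which puts it in the second of 10 length classes (810 to 1324 nt), where the median log2 fold change was 0.66 and 39.0% of 1363 genes were called higher. The fold change of Ddit3 was exceeded by 70 genes of that class and by 544 of all 14173 genes. The other 8 genes have transcripts of 1725 to 3475 nt, in classes whose medians ran from 0.03 (Atf4) down to -0.26. On length-corrected values Ddit3 stood at 1.39 (95% interval 0.83 to 1.94, limma adjusted p = 8.36e-04), with 9 of 9 Padi6-mutant embryos above the Control median and 7 above every Control embryo. With each gene's longest transcript in the correction it stood at 1.14 (adjusted p = 0.00264).

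**Figure D2:**
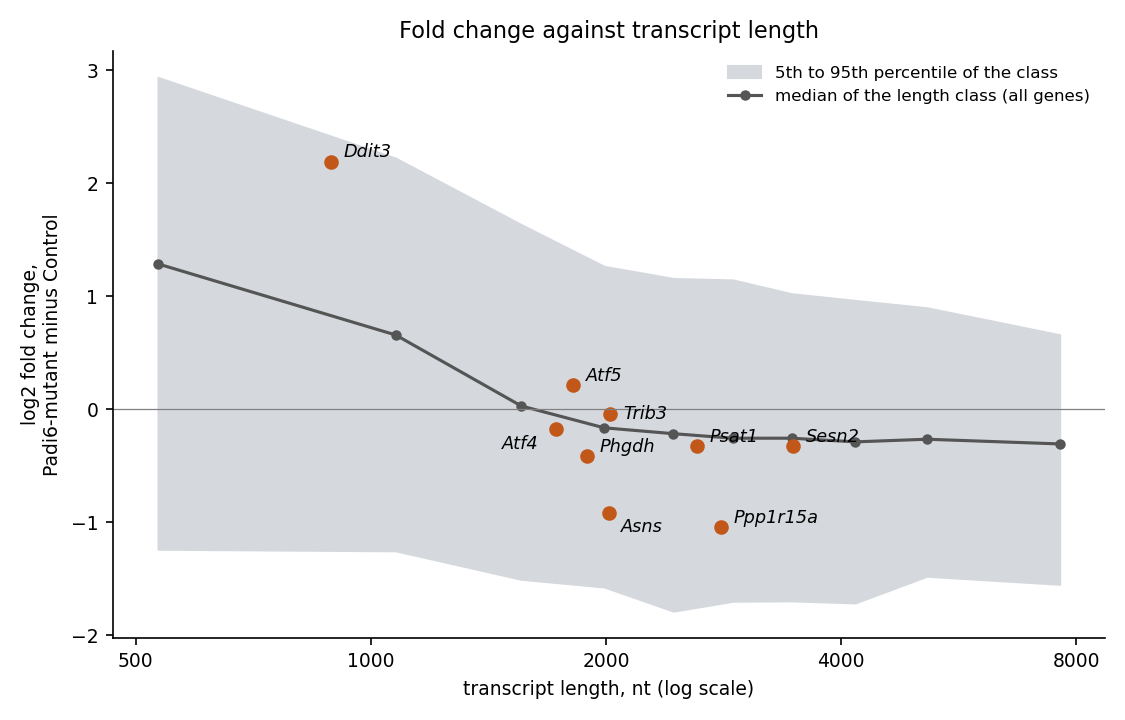
Log2 fold change (Padi6-mutant minus Control) against transcript length in nt on a log axis. The line joins the medians of 10 length classes of all genes, placed at the median length of the class, and the band runs from their 5th to their 95th percentile. Ddit3 (890 nt, 2.19) lies inside the band near its upper edge, and the other 8 genes lie inside it too.

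The rise of Ddit3 was also present in the libraries with more genes detected. Without the sparse libraries the log2 fold change was 2.36 (limma adjusted p = 1.52e-04), and in a fit adjusting for detected genes it was 2.25 (adjusted p = 3.42e-04). Exons of Ddit3 share 68 bases with Mars1, a tRNA synthetase gene on the opposite strand. Mars1 fell by 0.60 in Padi6-mutant embryos (limma adjusted p = 0.0311) and stood at -0.28 on length-corrected values (adjusted p = 0.140). The part of reads from the shared bases in the level of Ddit3 was not tested. Mars1 no longer passed when any 1 of Control 1, 2, 3 and 6 and Padi6-mutant 2, 7 and 10 was left out (adjusted p up to 0.0617).

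Among the genes that restrain the response, Ppp1r15a fell and Trib3 did not pass. Ppp1r15a, the stress-induced subunit that directs a phosphatase to eIF2, had levels of 10.12, 9.91, 9.25, 9.49, 9.32, 9.87, 9.93, 8.80, 9.74 and 9.12 in Control embryos 1 to 10. In Padi6-mutant embryos 2 to 10 they were 7.71, 9.36, 9.16, 8.80, 9.25, 8.30, 8.55, 7.55 and 7.95. All 9 Padi6-mutant embryos lay below the Control median, and 5 of them lay below every Control embryo. The log2 fold change was -1.04, a 2.06-fold lower level (SE 0.27, limma adjusted p = 0.00623). The call ended on length-corrected values (-0.67, adjusted p = 0.0574), though not with each gene's longest transcript in the correction (-0.70, adjusted p = 0.0416), and on adjusting for detected genes (-0.94, adjusted p = 0.0697), and held without the sparse libraries (-0.89, adjusted p = 0.0426).

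Trib3, a pseudokinase that binds ATF4 and CHOP and is induced by both, varied most among the 9 genes. Its level ran from 1.58 through 6.48 to 8.98 in Control and from 3.46 through 7.04 to 8.49 in Padi6-mutant embryos, with SDs of 2.27 and 1.74. The lowest value, 2 scaled counts, was that of Control 10. The log2 fold change of -0.05 had a 95% interval of -1.80 to 1.71 (limma adjusted p = 0.977). Its sign turned in 5 of 12 alternative fits and on leaving out each of 7 embryos.

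Sesn2, a stress-induced protein that holds back mTORC1, ran from 9.42 through 11.56 to 12.63 in Control and from 9.95 through 10.94 to 11.97 in Padi6-mutant embryos. Control 1, 2 and 3 lay above all Padi6-mutant embryos, and Control 4, 5 and 9 lay below all of them. The log2 fold change of -0.32 (95% interval -1.12 to 0.47) did not pass (limma adjusted p = 0.565), and it turned to 0.17 on length-corrected values.

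The amino acid synthesis enzymes of the response did not pass either. Asns, the glutamine-dependent asparagine synthetase, ran from 8.96 through 11.65 to 12.74 in Control embryos. In Padi6-mutant embryos it ran from 8.38 through 9.89 to 12.73, and 6 of the 9 lay below the Control median, with Padi6-mutant 2, 7 and 8 at 11.87 or above. The log2 fold change was -0.92 (SE 0.57, limma adjusted p = 0.238), within the spread between embryos, whose SDs were 1.35 in Control and 1.47 in Padi6-mutant embryos.

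Phgdh and Psat1 catalyse the first steps of serine synthesis from a glycolytic intermediate and were the most abundant of the 9 genes. Phgdh ran from 13.22 through 14.07 to 14.80 in Control and from 11.53 through 13.75 to 14.85 in Padi6-mutant embryos (log2 fold change -0.42, limma adjusted p = 0.384). Psat1 ran from 13.22 through 13.56 to 13.92 in Control and from 11.72 through 13.26 to 14.73 in Padi6-mutant embryos (log2 fold change -0.33, limma adjusted p = 0.375). Both had a wider range in Padi6-mutant than in Control embryos, 3.32 against 1.58 for Phgdh and 3.01 against 0.71 for Psat1, a difference in spread that was not tested. Padi6-mutant 9 had the lowest value of both, and Padi6-mutant 6, a sparse library, had the highest of Psat1. GENCODE M21 names a pseudogene of Phgdh (Phgdh-ps1), so its reads could be split by the counting.

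**Figure D3:**
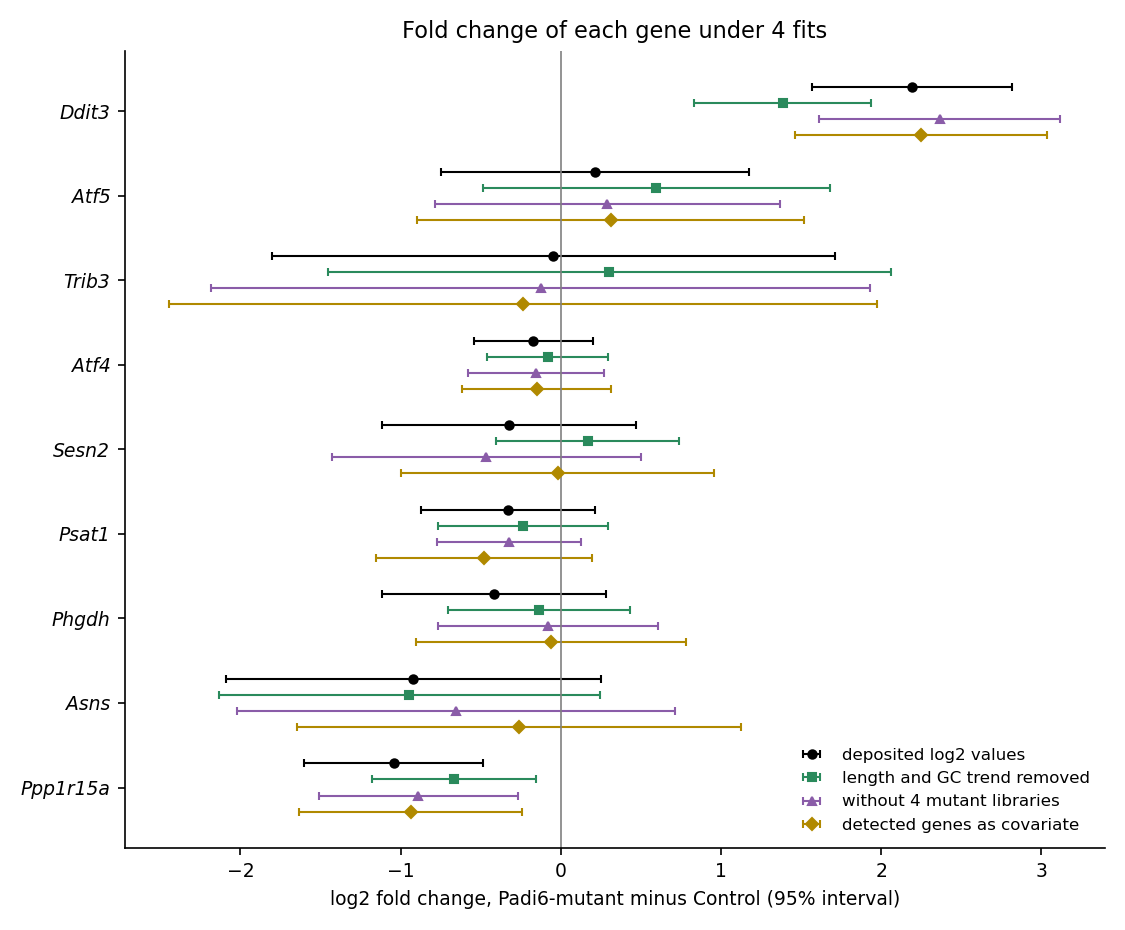
Log2 fold change (Padi6-mutant minus Control) of each gene with its 95% interval under 4 fits: the deposited log2 values, the length-corrected values, the fit without the sparse libraries and the fit adjusting for detected genes. The interval of Ddit3 lies above 0 in each, between 0.83 and 3.12 at its ends, and those of Atf4, Atf5, Trib3, Sesn2, Psat1, Phgdh and Asns take in 0 in each.

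Whether Ddit3 moved with or apart from the ATF4 targets was tested within embryos, as the level of Ddit3 minus that of each other gene in the same library, which leaves out the scale factor of the library. On the deposited values Ddit3 moved apart from all 8 other genes. Each difference holds the same rise of Ddit3, so the 8 tests are not independent of one another or of that rise. The difference between genotypes was 2.36 log2 units against Atf4, 3.11 against Asns, 2.52 against Psat1, 2.61 against Phgdh and 2.52 against Sesn2, with exact permutation p of 3.25e-05, 0.00118, 1.84e-04, 2.49e-04 and 8.98e-04 in that order. Against Ppp1r15a it was 3.24 and against Atf5 1.98, both with an exact permutation p of 1.08e-05, the smallest that the 92378 splits of the embryos can give. Against Trib3 it was 2.24 (exact permutation p = 0.0268), and with the replicate number as a block 1.94, which did not pass (exact permutation p = 0.105). The highest value adjusted over the 8 pairs was the 0.0268 of Trib3.

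Ddit3 minus Asns was -2.60 ± 1.78 in Control embryos (SD, n = 10) and 0.51 ± 1.45 in Padi6-mutant embryos (SD, n = 9), so that the order of the 2 means turned. Ddit3 minus Atf4 was -3.67 ± 0.74 in Control and -1.30 ± 0.64 in Padi6-mutant embryos, and Atf4 kept the higher mean. Ddit3 minus Ppp1r15a was -0.89 ± 0.93 in Control and 2.34 ± 0.92 in Padi6-mutant embryos, with all 9 Padi6-mutant embryos above every Control embryo. The groups did not overlap against Atf5 either. Against Trib3, Control 10 lay above all Padi6-mutant embryos at 7.39.

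On length-corrected values these differences were smaller. They stood at 1.47 against Atf4, 2.33 against Asns, 1.22 against Sesn2, 1.62 against Psat1, 1.52 against Phgdh and 2.05 against Ppp1r15a, with exact permutation p adjusted over the 8 pairs between 0.00104 and 0.0160. Against Atf5 the difference was 0.79 (adjusted p = 0.0397), or 0.65 with the longest transcripts (adjusted p = 0.175). Against Trib3 it was 1.08 and no longer passed (exact permutation p = 0.225). Without Padi6-mutant 6, the difference against Trib3 on the deposited values was 1.99 (exact permutation p = 0.0510).

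**Figure D4:**
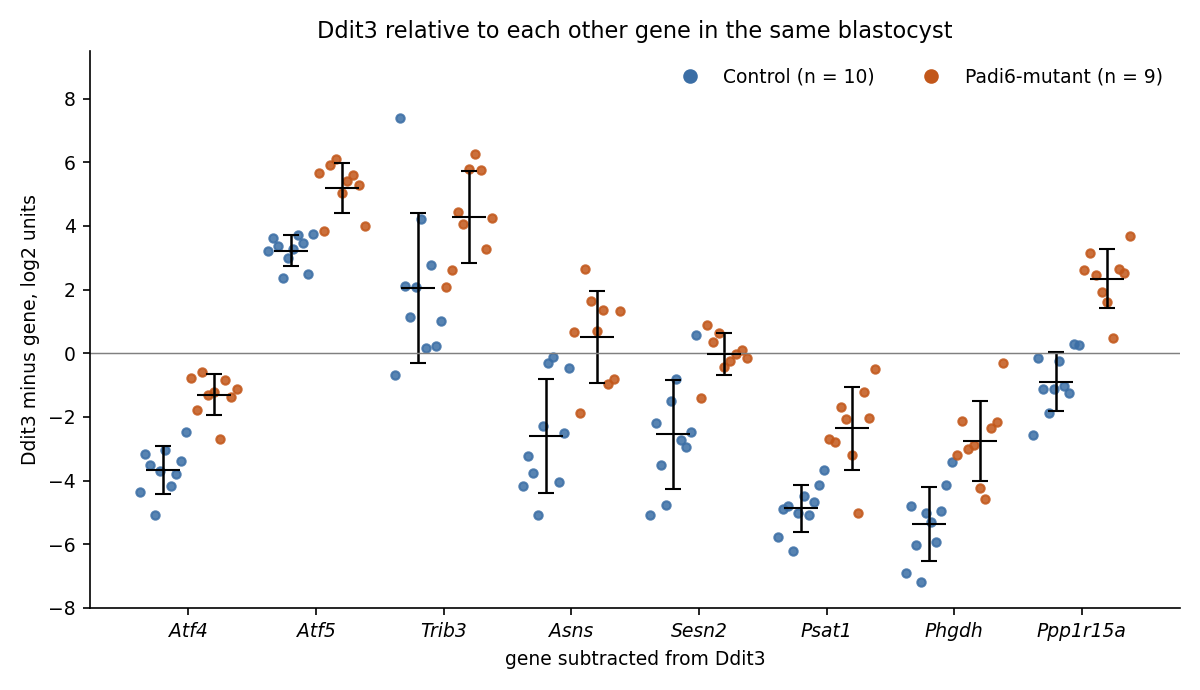
Level of Ddit3 minus the level of each other gene in the same blastocyst, in log2 units, for 10 Control and 9 Padi6-mutant embryos. Points are embryos, bars are means and whiskers 1 SD. The Padi6-mutant points sit higher for every gene, without overlap for Atf5 and Ppp1r15a.

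Within a genotype, Ddit3 did not follow the ATF4 targets from embryo to embryo on the deposited values, at a level these numbers can show. Of 16 correlations (8 genes in each genotype), 0 passed after adjustment over the 16, and 2 had an unadjusted permutation p under 0.05 by Pearson's r as by Spearman's rho. The closest was that with Atf5 in Control embryos, at r = 0.78 (n = 10, permutation p = 0.00787, adjusted 0.126) and rho = 0.84 (permutation p = 0.00326, adjusted 0.0522), with r = 0.84 after leaving out the 2 embryos farthest from the median of Atf5. On length-corrected values it passed, at r = 0.88 (permutation p = 0.00109, adjusted 0.0174) and rho = 0.85 (permutation p = 0.00291, adjusted 0.0466). In Padi6-mutant embryos it was r = 0.57 (n = 9, exact permutation p = 0.111, adjusted 0.354) and rho = 0.60 (exact permutation p = 0.0968, adjusted 0.387), with r = 0.83 without the 2 farthest.

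With Sesn2 the correlation in Control embryos was negative, at r = -0.64 (n = 10, permutation p = 0.0444, adjusted 0.354) and rho = -0.70 (permutation p = 0.0309, adjusted 0.247), and r fell to -0.35 without the 2 embryos farthest from the median of Sesn2, so it rests on those. With Asns, r was -0.37 in Control (n = 10, permutation p = 0.294, adjusted 0.588) and 0.23 in Padi6-mutant embryos (n = 9, exact permutation p = 0.558, adjusted 0.744), with rho of -0.48 (permutation p = 0.168, adjusted 0.536) and 0.07 (exact permutation p = 0.880, adjusted 0.939), and r of -0.39 and 0.32 without the 2 farthest. With Atf4 it was 0.27 in both genotypes (permutation p = 0.440 in Control and exact p = 0.475 in Padi6-mutant embryos, adjusted 0.691 for each), with rho of 0.21 (permutation p = 0.560, adjusted 0.747) and 0.12 (exact permutation p = 0.776, adjusted 0.886), and r of 0.02 and -0.04 without the 2 farthest. Length-corrected, r with Atf4 was 0.74 in Control (permutation p = 0.0146, adjusted 0.0779) and 0.10 in Padi6-mutant embryos (exact permutation p = 0.800, adjusted 0.800). With Psat1 it was 0.13 in Control (permutation p = 0.716, adjusted 0.764) and -0.79 in Padi6-mutant embryos (exact permutation p = 0.0130, adjusted 0.0779). Without the 2 farthest, the 0.74 became 0.53 and the -0.79 became -0.35. Over all 72 correlations among the 9 genes on the deposited values, 0 passed after adjustment, and 37 of the r were above 0.

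The genes whose levels were most like those of Ddit3 were not among the 9. Over the 19 embryos, after the mean of each genotype was taken out and among 12222 genes above 0 in all libraries, they were Hsd17b10 (r = 0.81), Ncbp2as2 (0.80) and Svbp (0.80). Hsd17b10 and Svbp have transcripts of 962 and 733 nt, about as short as that of Ddit3, and Ncbp2as2 had no length matched. Genes measured in the same libraries are exposed to the same differences in depth and length trend between libraries, so the values are a description. Atf5 had an r of 0.64 with Ddit3, exceeded by 159 genes, and Atf4 one of 0.26, exceeded by 2949. For Atf4 the most like genes were Ubald2 (0.82), Ndufv3 (0.78) and Arl16 (0.71).

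Per kilobase of transcript, the order of the levels showed Ddit3 moving past Sesn2 and Asns. In Control embryos the median log2 scaled count per kilobase was 13.2 for Phgdh, 12.2 for Psat1, 11.6 for Atf4, 10.6 for Asns, 9.76 for Sesn2, 8.97 for Ddit3, 8.12 for Ppp1r15a, 5.44 for Trib3 and 4.46 for Atf5. In Padi6-mutant embryos Ddit3 had rank 4 at 11.1, after Phgdh (12.8), Psat1 (11.9) and Atf4 (11.6) and before Sesn2 (9.15), Asns (8.88), Ppp1r15a (7.05), Trib3 (6.02) and Atf5 (4.50). Phgdh lay above Psat1 and Psat1 above Atf4 in 10 of 10 Control embryos, while Ddit3 lay below Sesn2 in 7 of 10 and above it in 9 of 9 Padi6-mutant embryos. The neighbours Atf4 and Ddit3 kept their order in 6 of 9 Padi6-mutant embryos and Trib3 and Atf5 in 5 of 9, so these pairs did not differ beyond the spread between embryos.

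The wider pathway was read from 8 further lists holding 91 listed genes. Of these, 7 rose and 12 fell in Padi6-mutant embryos, or 19 of 91, beside 26.6% of all genes, and their median log2 fold change was -0.13 against -0.10. The share is not above that of all genes, so nothing is read from it about the pathway as a whole.

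Upstream of eIF2, 0 of 6 kinases and regulators of the kinase GCN2 rose in limma (0 at an unadjusted p under 0.05). Of the 6, 2 fell (3 at an unadjusted p under 0.05), with a list median of -0.54. Eif2ak3, the PERK kinase of the endoplasmic reticulum, fell by 0.61 (limma adjusted p = 0.0408), and Gcn1, the ribosome-bound activator of GCN2, fell by 0.74 (adjusted p = 0.0127). Both have long transcripts, of 4513 and 8555 nt, and stood at -0.34 (adjusted p = 0.225) and -0.17 (adjusted p = 0.366) on length-corrected values. The call of Eif2ak3 held on leaving out Control 5, 6, 7, 9 or 10 or Padi6-mutant 6, 7 or 10 and ended without any 1 of the other 11 embryos (adjusted p up to 0.0796). A list of 13 genes held subunits of eIF2, its exchange factor eIF2B and its phosphatases, and Eif2a, which encodes a separate initiation factor. Of these 13 genes, 1 rose and 1 fell, with a median of 0.00. Eif2s2, the beta subunit of eIF2, rose 2.56-fold (adjusted p = 0.00150) and stood at 1.30 on length-corrected values. Ppp1r15b, the constitutive counterpart of Ppp1r15a, fell by 0.63 (adjusted p = 0.0110), and stood at -0.43 on length-corrected values (adjusted p = 0.0635).

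Further targets of ATF4 moved in both directions. Of 19 enzymes and factors 1 rose and 3 fell (median 0.33), namely Map1lc3b, a protein of autophagosome membranes (1.22, limma adjusted p = 0.00395), Sqstm1, an autophagy receptor (-1.12, adjusted p = 0.0146), Shmt2, the mitochondrial serine hydroxymethyltransferase (-1.27, adjusted p = 0.0158), and Cth, which makes cysteine from cystathionine (-0.75, adjusted p = 0.0361). The call of Cth ended without Control 1, 3, 4, 7 or 10, and without Padi6-mutant 3, 4, 8 or 9 (adjusted p up to 0.0695). Those of Sqstm1 and Shmt2 ended without the sparse libraries (limma adjusted p = 0.0567 and 0.104). They also ended on adjusting for detected genes (limma adjusted p = 0.1395 and 0.3195). Of 6 amino acid transporters 0 passed in limma (0 at an unadjusted p under 0.05), among them Slc3a2, the heavy chain of several transporters (-0.01, adjusted p = 0.969), and Slc38a2, a neutral amino acid transporter (-0.43, adjusted p = 0.491). The median of the 6 transporters was -0.49, and 0 of them had a log2 fold change above 0 on the deposited values. In a list of 14 genes, the tRNA synthetases and the tRNA exporter Xpot, 0 rose in limma (1 at an unadjusted p under 0.05) and 2 fell, Xpot (-0.74, adjusted p = 0.00160) and Mars1. At an unadjusted p under 0.05, 5 of the 14 were lower, and the list median was -0.19.

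In the other arms of the unfolded protein response, 2 of 17 genes rose and 1 fell (median -0.08). Manf, a secreted protein of the stressed endoplasmic reticulum, ran from 11.43 through 11.67 to 12.91 in Padi6-mutant and from 9.64 through 10.51 to 11.51 in Control embryos, with 7 of 9 Padi6-mutant embryos above every Control embryo. Its log2 fold change was 1.27 (limma adjusted p = 4.32e-04), and 1.42 on length-corrected values. Sdf2l1, a chaperone partner, stood at 0.83 (adjusted p = 0.0462; 0.37 and adjusted p = 0.303 when length-corrected), and Pdia4, a disulfide isomerase, at -0.46 (adjusted p = 0.0291). The call of Sdf2l1 held on leaving out Control 5, 7 or 10 or Padi6-mutant 7, 9 or 10 and ended without any 1 of the other 13 embryos, and that of Pdia4 ended on leaving out Control 1, 2 or 3 or Padi6-mutant 2 or 6, at adjusted p of up to 0.0902 and 0.0606.

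Of 9 genes of the mitochondrial stress relay and its chaperones, 2 rose and 2 fell (median -0.35). Hspe1, the HSP10 cochaperonin, rose by 2.03 (limma adjusted p = 2.38e-05) while Hspd1, its HSP60 partner, fell by 0.61 (adjusted p = 0.00139). Hspe1 has a transcript of 774 nt and stood at 0.94 on length-corrected values (adjusted p = 6.09e-04). The protease Clpp rose by 0.98 (adjusted p = 0.00733; 0.39 and adjusted p = 0.130 when length-corrected), and the mitochondrial chaperone Hspa9 fell by 0.40 (adjusted p = 0.0325), which no longer passed when any 1 of Control 1, 2, 3, 4 and 8 and Padi6-mutant 2 and 9 was left out (adjusted p up to 0.0637). Among 7 genes tied to CHOP in cell death and redox balance, Ero1b, an oxidase of disulfide formation, rose by 1.08 (adjusted p = 0.0216) and Trib1, a relative of Trib3, fell by 0.80 (adjusted p = 0.00964; -0.44 and adjusted p = 0.157 when length-corrected). The call of Ero1b ended without the sparse libraries (0.84, limma adjusted p = 0.170) and on adjusting for detected genes (0.73, limma adjusted p = 0.262). It held on length-corrected values (1.12, limma adjusted p = 0.0131).

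**Figure D5:**
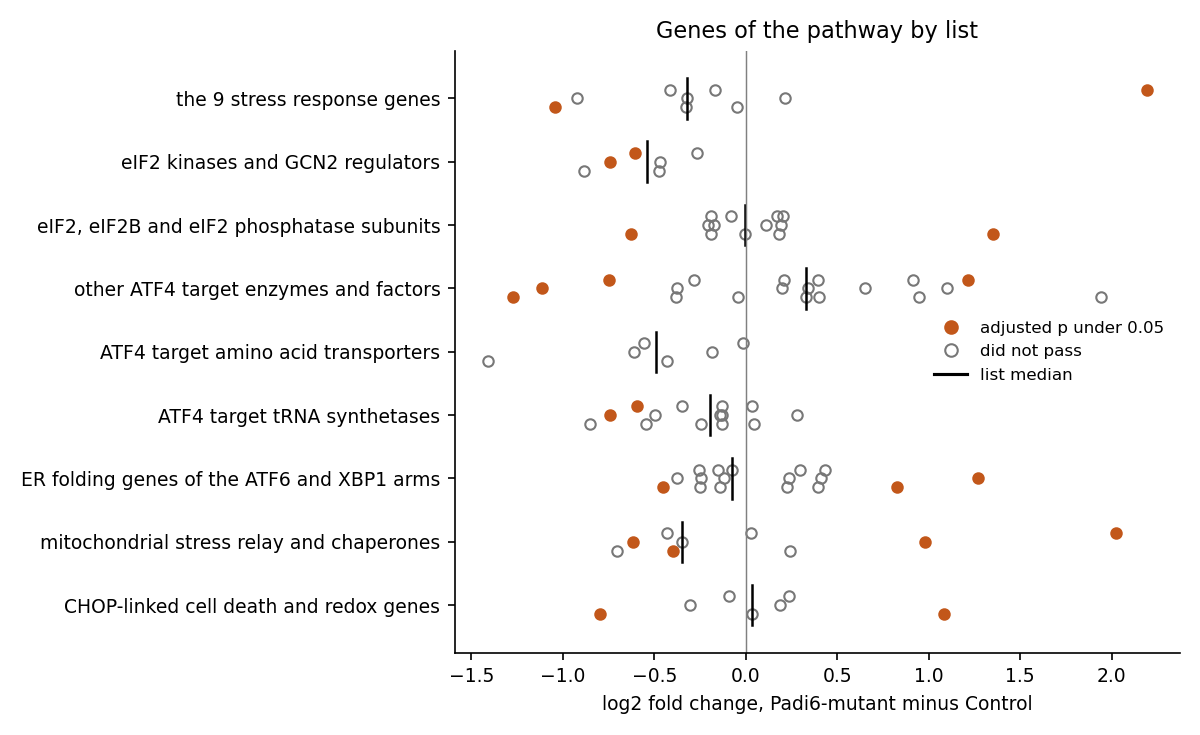
Log2 fold change (Padi6-mutant minus Control) of each gene by list, filled where the limma adjusted p is under 0.05, with the list median as a vertical bar. Ddit3 at 2.19 and Hspe1 at 2.03 are the highest filled points, and 0 of 6 transporters is filled.

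Of the 19 genes of these lists that passed, 12 passed in the same direction on length-corrected values, 10 without the sparse libraries, and 7 on adjusting for detected genes. Calls over all genes also dropped, from 26.6% on the deposited values to 20.9%, 18.5% and 12.7% in that order. How many of all called genes kept their call was not counted. Eif2s2, Map1lc3b, Manf, Xpot, Hspe1 and Hspd1 passed in each of these 3 fits. Mars1, Gcn1, Ppp1r15b and Sdf2l1 passed in 0 of the 3.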

How the data were processed

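Single-blastocyst polyadenylated RNA libraries, made per the labels' protocols by G&T separation, template switching, PCR and Nextera XT, were compared between 10 Control and 9 Padi6-mutant embryos. Per the submitters' processing notes, Trim Galore 0.4.4 and HISAT2 2.1.0 were used, with builds GRCm39 and mm39. The counting tool, its use of strand and the annotation are not given in the sources used here. The values deposited by the authors are log2 values: raised back to the linear scale they were whole to within 1.96e-07, and 1 was subtracted to give scaled counts, and the upper quartile was the same in all 19 libraries. The 2 most alike libraries had a Spearman's rho of 0.972, so none was a duplicate.

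Groups were compared with limma 3.58.1 (R 4.3.3, lmFit, eBayes with a trend, two-sided) over all 14173 genes. The fit was also run on simulated data with independent noise for each gene. Those data had no length or depth trend between libraries, so that run cannot show how such trends affect the calls. No filter on low values was applied, since each gene was above 0 in at least 9 libraries. Ddit3 minus each gene was compared with a two-sided exact permutation test. Correlations used 100000 permutations in Control embryos and all 362880 pairings in Padi6-mutant embryos. Lengths came from the longest principal transcript in GENCODE M21 (13635 genes, 96.2%), because the shortest one of Ddit3 is a 105 nt model, and trends were fitted by lowess with a span of 0.3. All 10 genes matched the RefSeq promoter table by symbol.

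The members, lists and tests were chosen with earlier results of these data known. Named genes were the members, from each list up to 4 genes past the threshold with the smallest adjusted p (or the 2 with the highest mean), and the 3 genes most like Ddit3 and Atf4. Mars1 also came under the overlap with Ddit3.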

Additional observations from a re-analysis of the deposited data

Results flagged for a closer look

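A gap test on the highest and lowest embryo of each genotype, run on 76 sets of values, marked 4 embryos as far from the others, and chance marks about 1 in 20 sets. Atf4 stood at 13.02 in Control 6, against 11.90 to 12.48 in the other Control embryos. Ppp1r15b stood at 10.34 in Padi6-mutant 6, against 11.12 to 11.77 in the others. Manf stood at 12.91 in the same embryo, against 11.43 to 12.14. Slc38a2 stood at 7.20 in Control 8, against 8.95 to 10.43.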

How the results depend on the processing

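The rise of Ddit3 passed in 13 of 13 alternative fits (1.14 to 2.43) and in 19 of 19 fits without 1 embryo (2.05 to 2.34). Ppp1r15a stood at -0.67 on length-corrected values, -0.94 on adjusting for detected genes, and -0.58 and -0.75 where the length correction was joined with leaving out the sparse libraries or with that adjustment, and did not pass in these 4; without 1 embryo it ran from -1.15 to -0.92. Genes called over the whole table numbered 1807 on adjusting for detected genes, and 2064 and 1277 under the 2 joint fits, against 3765, and 3035 to 4288 without 1 embryo. Of the 9 members, 1 was called under the length correction, both joint fits, the adjustment for detected genes and the restriction to genes above the median level, which left out Ppp1r15a, Trib3 and Atf5, and 2 without any 1 embryo. Wider-list calls, 19 on the deposited values, numbered 33 with library weights, 8 on adjusting for detected genes, 11 without the sparse libraries, 10 with the replicate block, 9 and 10 under the joint fits, and 13 to 26 without 1 embryo. The share of all genes called in the first 6 of these fits was 37.7%, 12.7%, 18.5%, 17.8%, 15.1% and 9.37%, against 26.6%.

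Among changes that did not pass, signs turned for Atf4 (0.014 with longest transcripts), Phgdh (0.10, length-corrected without the sparse libraries), Sesn2 (0.17 length-corrected, 0.15 with longest transcripts, 0.27 length-corrected with detected genes) and Trib3 (0.30 length-corrected, 0.22 with longest transcripts, 0.13 with library weights, 0.13 with the replicate block and 0.13 length-corrected without the sparse libraries; -0.61 to 0.34 without 1 embryo). Slc3a2 turned to 0.18, 0.24, 0.16, 0.019, 0.10 and 0.14 (length-corrected, longest transcripts, detected genes, replicate block and the 2 joint fits) and ran from -0.10 to 0.089 without 1 embryo. With library weights Sesn2 stood at -0.80 and passed (limma adjusted p = 0.04997). Ddit3 minus Atf5 was 0.65 with longest transcripts, and Ddit3 minus Trib3 was 1.08 length-corrected, 0.92 with longest transcripts, 1.94 with the replicate block (exact permutation p = 0.105, did not pass) and 1.94 to 2.83 without 1 embryo. The Ddit3 correlations that passed numbered 1 on length-corrected values, and without the sparse libraries they were computed in Control embryos alone. The cause of these changes was not tested.

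The replicate numbers do not pair embryos: same-numbered embryos had correlations of -0.07 to 0.15, 1 of 9 over 0.1, and 1 of 9 correlated best with its own number. With the number as a replicate block Ddit3 stood at 2.07 (limma adjusted p = 6.01e-04) and Ppp1r15a at -0.98 (adjusted p = 0.0367). Totals could be worked back in 13 of 19 libraries only, so counting error was not given per value. The 2 joint fits, the longest-transcript correction and the correlations over all 72 pairs were added after seeing the data.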
